A study of Mus musculus with 12 samples.

Results

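Open chromatin at the integrin and laminin genes was described across 12 ATAC-seq libraries of mouse cells. Integrins are receptors of the cell surface made of an alpha and a beta subunit, and laminins are basement membrane proteins made of an alpha, a beta and a gamma chain. The members were chosen by position and name. Overlapping peaks of all 12 libraries (at least 1 bp) on chromosomes 1 to 19 and X were merged into 153346 regions. Of these, the 533 whose nearest protein-coding gene within 100 kb has an integrin or laminin symbol were taken. The symbols were Itga or Itgb with a number, Itgav, and Lama, Lamb or Lamc with a number. They name 33 genes in the RefSeq annotation of GRCm38.p6, of which 32 had a region and Itgb2l, an integrin beta 2-like gene, had none. The families were integrin alpha (225 regions, 13 genes), integrin beta (137 regions, 8 genes), laminin alpha (96 regions, 5 genes), laminin beta (28 regions, 3 genes) and laminin gamma (47 regions, 3 genes).

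In ATAC-seq a transposase inserts adapters into accessible DNA, and a peak is a stretch with more insertions than its surroundings. The genotype labels give the groups EF_IGF1_xeno (n = 1), EF_IGF1 (n = 2), EF (n = 4), Wt_IGF1 (n = 1) and Wt (n = 4), all of cells named MSCLCs. The title of the series names EWS::FLI1 (the fusion gene that drives Ewing sarcoma), YAP1, IGF-1 and mesenchymal stem cells of bone, and its design text lists WT, EFPrx1, ha-EFPrx1 and hr-EFPrx1 cells. How those names map to the labels, the promoter that drives the fusion, the length of IGF1 treatment, the host of the xeno cells and the age of the animals are not stated in the labels. All EF, EF_IGF1 and EF_IGF1_xeno libraries came from lines S_220 and S_221, so the 4 EF libraries are 2 lines on 2 flowcells each. Replicates 1 and 2 of EF and of Wt were sequenced on flowcell BSF_0654, and the remaining 8 libraries on BSF_1013. The Wt libraries carry the line names WT_1 and WT_2 on BSF_0654, and BM and S_203 on BSF_1013, so for Wt the flowcell and the culture cannot be told apart. The labels do not tie replicates to separate animals.

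Integrins clasp matrix proteins outside the cell and couple them to the actin cytoskeleton through adaptors such as talin and kindlin, and to signalling through focal adhesion kinase. The alpha subunit largely sets the ligand: laminin, collagen, or the RGD motif of fibronectin and vitronectin. In bone marrow and limb mesenchyme these receptors hold stromal cells in their matrix, and adhesion is one of the inputs that control YAP1. Laminin chains assemble in the secreting cell, and the alpha chain carries the main binding sites for integrins.

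The promoters of 6 members are shown because they include gene starts whose calls differed between groups and a pair that was called in nearly every library. Each is the RefSeq window of GRCm38.p6 from 250 bases before to 50 after an annotated start, 5′ to 3′ on the strand of the gene. Capitals mark matches on either strand to GGAATG (bound by TEAD factors, the partners of YAP1), TGANTCA (AP-1), GGAAGGAA (a pair of ETS cores), GGGCGG (the GC box of SP1), CCAAT and TATAAA (the TATA box). No printed match overlaps another. The Itga4 window lies at chr2:79255176-79255475 on the plus strand, and Itga2 at chr13:114932051-114932350 on the minus strand. Lamb3 is its downstream window of a pair, at chr1:193301993-193302292, and Lamb1 lies at chr12:31265043-31265342, both on the plus strand. Itgav at chr2:83724147-83724446 and Itgb1 at chr8:128685404-128685703 are also on the plus strand.
Itga4: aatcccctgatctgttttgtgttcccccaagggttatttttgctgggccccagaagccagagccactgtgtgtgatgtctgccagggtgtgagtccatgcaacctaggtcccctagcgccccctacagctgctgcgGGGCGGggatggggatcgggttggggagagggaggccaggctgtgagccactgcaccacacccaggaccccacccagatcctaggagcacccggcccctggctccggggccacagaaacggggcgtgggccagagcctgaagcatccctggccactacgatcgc
Itga2: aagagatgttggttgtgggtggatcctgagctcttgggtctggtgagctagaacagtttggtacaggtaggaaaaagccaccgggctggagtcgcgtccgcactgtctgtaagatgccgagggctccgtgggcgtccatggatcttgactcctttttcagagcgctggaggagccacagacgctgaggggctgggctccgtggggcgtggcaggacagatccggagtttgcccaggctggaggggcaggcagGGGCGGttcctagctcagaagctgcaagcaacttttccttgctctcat
Lamb3: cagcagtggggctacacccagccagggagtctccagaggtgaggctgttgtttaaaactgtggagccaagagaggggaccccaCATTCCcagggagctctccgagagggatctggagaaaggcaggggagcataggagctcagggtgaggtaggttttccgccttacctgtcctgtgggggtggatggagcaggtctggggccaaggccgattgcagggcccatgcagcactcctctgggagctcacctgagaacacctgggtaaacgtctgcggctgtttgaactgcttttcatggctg
Lamb1: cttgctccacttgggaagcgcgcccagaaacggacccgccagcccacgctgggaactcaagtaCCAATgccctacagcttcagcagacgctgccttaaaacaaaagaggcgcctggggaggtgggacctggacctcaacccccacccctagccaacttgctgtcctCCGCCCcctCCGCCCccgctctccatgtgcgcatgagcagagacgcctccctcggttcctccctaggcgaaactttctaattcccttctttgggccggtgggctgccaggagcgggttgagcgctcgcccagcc
Itgav: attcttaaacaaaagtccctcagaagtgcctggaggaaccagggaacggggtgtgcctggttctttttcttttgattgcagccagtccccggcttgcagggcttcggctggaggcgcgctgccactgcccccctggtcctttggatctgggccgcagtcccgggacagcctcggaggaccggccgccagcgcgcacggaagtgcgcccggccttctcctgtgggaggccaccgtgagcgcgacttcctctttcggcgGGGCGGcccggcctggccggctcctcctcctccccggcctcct
Itgb1: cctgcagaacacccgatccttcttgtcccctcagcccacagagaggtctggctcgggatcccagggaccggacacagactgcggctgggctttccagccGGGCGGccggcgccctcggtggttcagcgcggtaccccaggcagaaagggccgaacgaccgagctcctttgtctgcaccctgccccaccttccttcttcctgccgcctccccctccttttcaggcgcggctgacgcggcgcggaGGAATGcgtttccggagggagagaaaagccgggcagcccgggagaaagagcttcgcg

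A GC box stood at base 137 of the Itga4 window and at base 253 of the Itga2 window, where base 251 is the annotated start. The Lamb3 window held a TEAD match at base 84. Lamb1 had a CCAAT match at base 64 and GC boxes at bases 167 and 176. Itgav had a GC box at base 258, and Itgb1 a GC box at base 100 and a TEAD match at base 244. These matches are a description of the letters and not of bound sites.

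Some libraries stood apart. The number of regions called per library was 40945 in EF_IGF1_xeno, 56410 and 60620 in EF_IGF1, 25562 to 64961 in EF, 79524 in Wt_IGF1 and 7464 to 66954 in Wt. Wt replicate 1 had 7464, and 69.8% of them lay within 1 kb of a gene end, against 17.3% to 33.3% in the other libraries. A gene end means either boundary of a gene interval throughout, so it can be the start of the gene. Wt replicate 2 called 76.5% of the 81 regions of 12 hematopoietic marker genes, against 4.94% to 35.8% elsewhere. These included 13 regions at Ptprc (CD45) and all 6 at the macrophage gene Adgre1, where 1 other library, Wt_IGF1, called 1. The 314 regions of 17 mesenchymal stem and limb markers were called at 30.3% in EF_IGF1_xeno, 37.6% and 42.7% in EF_IGF1, 17.5% to 48.4% in EF, 51.3% in Wt_IGF1 and 40.4% and 53.2% in Wt replicates 3 and 4. In Wt replicates 1 and 2 they were called at 0.955% and 23.6%, with 0 and 2 regions at the limb factor gene Prrx1, against 5 to 16 in the other libraries except EF replicate 2 (2). The genes of this list were mixed in Wt replicate 2. Col1a2 had 0 regions there and Twist2 1, while Pdgfra had 6 and Runx2 25, against 1 to 6 and 12 to 32 in the EF-labelled libraries. The library labelled EF_IGF1 replicate 1, line S_220, shared more regions with EF replicate 4 of line S_221 (Jaccard index 0.599, the shared regions over all regions of the pair) than with EF replicate 3 of its own line (0.406). Without read totals, the number of regions called stands for depth. A region counted as not called may also be open in too few cells or too little open per cell to pass the caller, and these cannot be told apart.

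Most integrin and laminin regions were found in few libraries. Of the 533, 182 (34.1%) were called in 1 library, 58 (10.9%) in 10 or more and 6 (1.13%) in all 12, against 36.3%, 13% and 3.77% of all 153346 regions. They lay inside genes more often than the regions of the series that have a gene within 100 kb, at 62.9% against 50.5%, and within 1 kb of a gene end less often, at 6.94% against 13.6%. Long genes carried most of them. Itga9, a receptor subunit for tenascin and osteopontin, spans 294 kb and had 45 regions. Lama2, the laminin chain of muscle and nerve whose loss causes muscular dystrophy, spans 636 kb and had 33, and Lamb2, the laminin chain of the synapse and the kidney filter, spans 10.7 kb and had 2. At the distance limit, the outermost members lay 95999 bp from Itga6 (3 libraries) and 95743 bp from Itga4 (2 libraries), and the nearest regions left out lay 104661 bp from Itga1 (2 libraries) and 107016 bp from Itga6 (1 library).

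**Figure D1:**
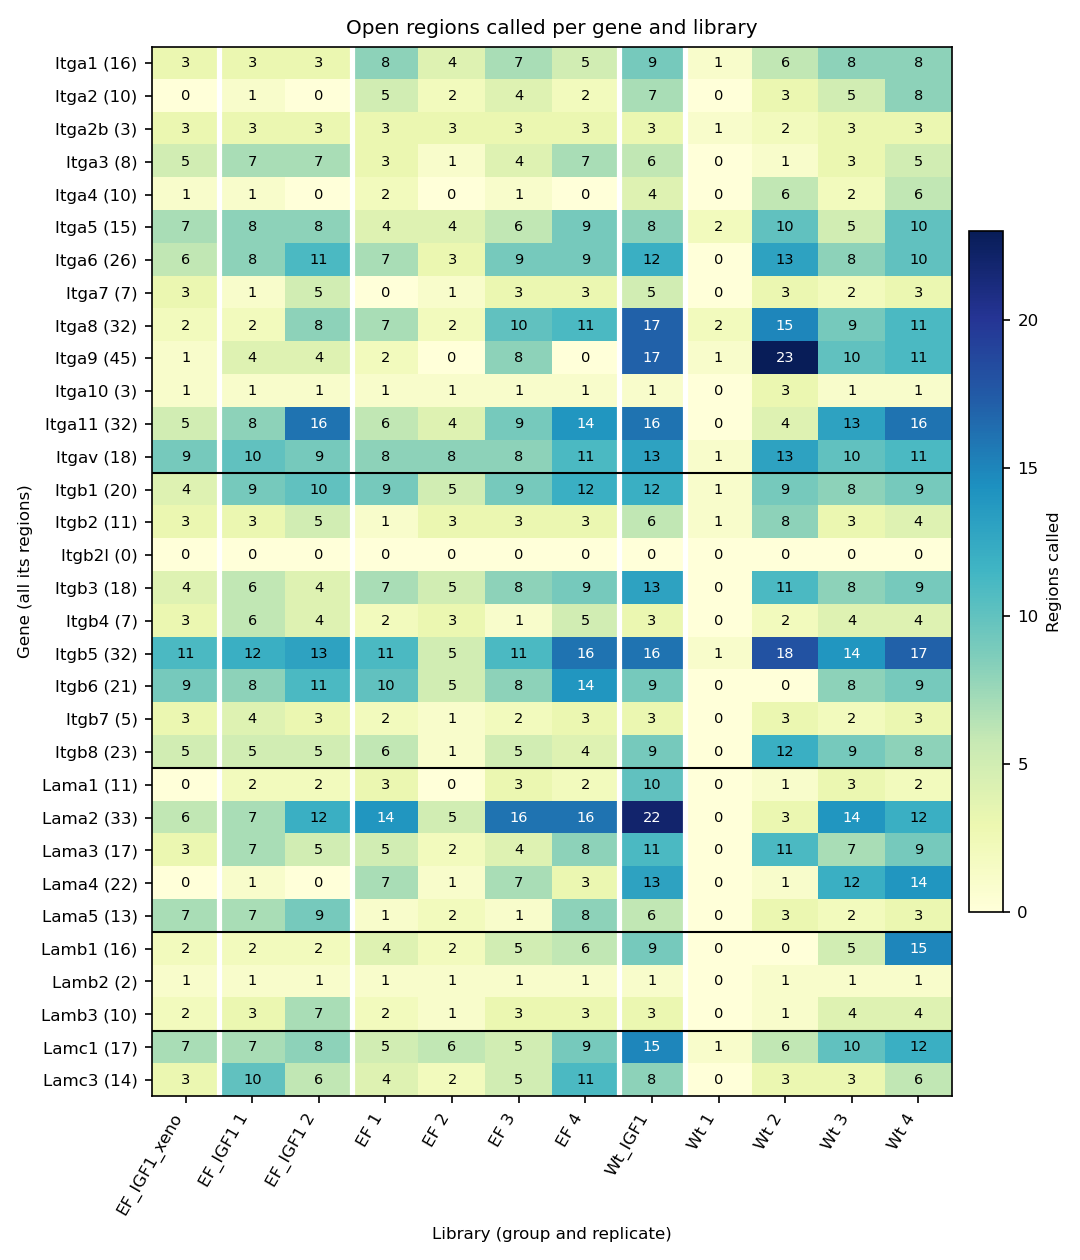
Number of regions called at each gene shown (rows, with the gene's total number of regions in brackets) in each library (columns, group and replicate), with families separated by black lines and groups by white lines. Lama4 and Itga2 are nearly empty in EF_IGF1_xeno and EF_IGF1, Lama5 is fullest there and in EF replicate 4, and Wt replicate 1 has at most 2 regions at any gene.

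The 6 regions called in all 12 libraries fell at 6 genes. Itgb1, the beta subunit with most partners, had a region 30473 bp upstream of its start, at chr8:128653688-128655180. The authors' fold of its peaks over local background was 12.5 in EF_IGF1_xeno, 11.6 and 12.7 in EF_IGF1, 11, 11.2, 8.1 and 13.7 in EF, 11.7 in Wt_IGF1 and 5.76, 7.41, 12.5 and 14 in Wt. Each fold in the text is the authors' value for a peak and is used only to describe peaks within a list. Wt replicate 1 had the lowest fold at this region. Itgav, the alpha subunit of the vitronectin receptors, had the region over its printed promoter (chr2:83723833-83725673) called in every library with folds of 3.95 to 9.79, and Lamc1, the common gamma chain, a region at a gene end (chr1:153331796-153334089) with folds of 5.14 to 6.97. The other 3 lay inside Itga5, the fibronectin receptor subunit, inside Itga2b, the platelet integrin subunit, and inside Itga1, a collagen receptor subunit, where the region also overlaps the gene Pelo. Without Wt replicate 1 the number rose to 27 of the 533, and that of all regions to 12288.

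Many regions called once came from 1 library. Wt replicate 2 held 84 of the 182 member regions called once, against 22405 of 55661 among all regions called once, 18 of them at Itga9, 10 at Itgb5, 8 at Itga8, and 7 each at Itga6 and Itgb8. It is the library in which the hematopoietic markers were called at 76.5%, and the part of those markers in its integrin regions was not tested. Wt_IGF1 held 29 such regions, 6 of them at Lama1, the chain of early embryonic basement membranes. EF replicate 4 held 14, 4 of them at Itgb6, the beta subunit that releases active TGF-beta.

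By label, 93 member regions (17.4%) were called only in the 7 EF-labelled libraries (EF_IGF1_xeno, EF_IGF1 and EF) and 198 (37.1%) only in the 5 Wt-labelled libraries (Wt_IGF1 and Wt), against 22.3% and 32.9% of all regions. The excess of Wt-labelled regions was widest for integrin alpha genes, with 12.4% called only in EF-labelled and 43.1% only in Wt-labelled libraries. Without Wt replicate 2 the shares were 22% and 25.4% for the members, 18.3% and 26.9% for integrin alpha genes, and 28.3% and 21.5% for all regions, so the wide gap rested on that library, while the members kept more Wt-only than EF-only regions.

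The share of a library's called regions that lay at member genes was 0.305% in EF_IGF1_xeno, 0.284% and 0.313% in EF_IGF1, 0.313%, 0.333%, 0.351% and 0.334% in EF, 0.373% in Wt_IGF1 and 0.161%, 0.333%, 0.378% and 0.378% in Wt. EF averaged 0.333% ± 0.0157 and Wt 0.312% ± 0.103 (SD, n = 4 each), a difference of 0.0201 percentage points that is smaller than the spread in Wt, and no test was run on it. On flowcell BSF_1013 EF averaged 0.343% and Wt 0.378%, and on BSF_0654 0.323% and 0.247%, so the direction turned with the flowcell. The turn followed Wt replicate 1, the short list, which had 12 member regions; without it EF was lower by 0.0304 points (-0.0304). On BSF_1013 both EF libraries were below both Wt libraries and Wt_IGF1, and the EF_IGF1 and EF_IGF1_xeno libraries were lower again.

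The families did not all follow the sum. Integrin alpha regions made up 0.125% ± 0.0149 of the called regions in EF, against 0.145% ± 0.0278 in Wt (SD, n = 4 each), and EF was lower by nearly the same amount on BSF_1013 (-0.0197 points) and on BSF_0654 (-0.0196 points). The difference was -0.0102 points without Wt replicate 2, -0.0322 without Wt replicate 1, -0.00811 with peaks of −log10 q of 5 or more and -0.00324 with at most 20000 peaks per library, so its size depended on the libraries and the list length. On BSF_0654 the integrin alpha share was lower in EF only against Wt replicate 2 (0.173%). Wt replicate 1 (0.107%) lay below EF replicates 1 and 2 (0.112% and 0.129%). On BSF_1013 EF replicates 3 and 4 had 0.145% and 0.115%, and Wt replicates 3 and 4 had 0.146% and 0.154%. Integrin beta regions made up 0.1% ± 0.00715 in EF, against 0.0862% ± 0.0311 in Wt (SD, n = 4 each). Laminin alpha regions made up 0.0544% ± 0.0104 in EF, against 0.0405% ± 0.0314 in Wt, laminin beta regions 0.0157% ± 0.00158 in EF, against 0.0129% ± 0.0139 in Wt, and laminin gamma regions 0.0369% ± 0.00637 in EF, against 0.0278% ± 0.0147 in Wt (SD, n = 4 each). For the beta subunits and for each laminin family EF was higher over all libraries and lower on BSF_1013 (differences of -0.00127 to -0.00754 points), and the differences were within the spread of the Wt libraries.

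**Figure D2:**
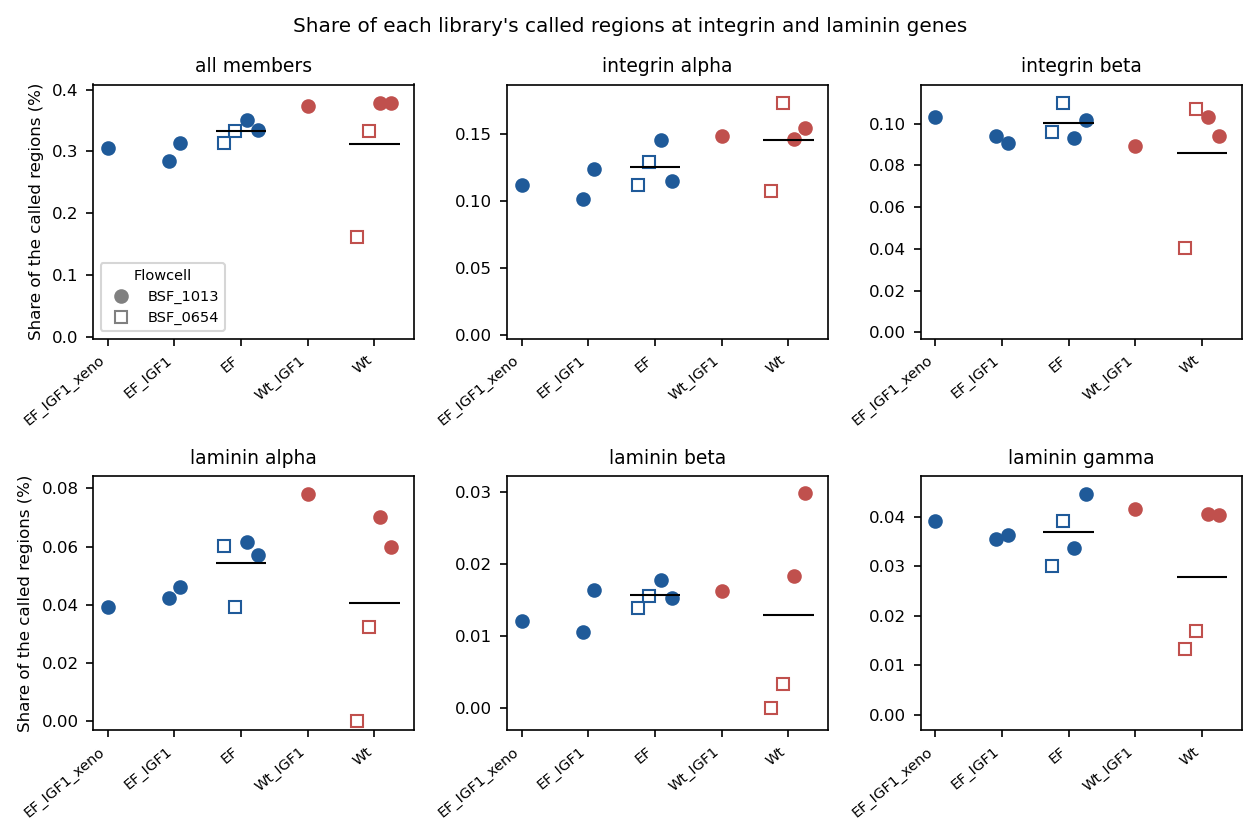
Share of each library's called regions (%) that lie at integrin and laminin genes, for all members and by family, with 1 point per library, filled circles for flowcell BSF_1013, open squares for BSF_0654 and a black line at the mean of the 4 EF and of the 4 Wt libraries. Wt replicate 1 is the lowest point for all members (0.161%) and has no laminin alpha or laminin beta region.

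EF was set against Wt to see which of these regions differ with the EF genotype. A region was gained when at least 3 of 4 EF libraries and 0 of 4 Wt libraries called it, and lost in the reverse case. By this rule 3 member regions (0.563%) were gained and 9 (1.69%) lost, against 1.19% gained and 0.938% lost among all regions. Gained regions were thus the rarer side at these genes and lost regions the more frequent one, but with at most 20000 peaks per library 4 were gained and 2 lost. Among all regions that setting gave 1300 gained and 403 lost. With counts of 3 and 9 no test was run, and EF libraries of 1 line are not independent cultures.

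The 3 gained regions lay at integrin genes. These genes hold most member regions (225 alpha and 137 beta of 533), so 3 regions do not set the families apart. At Itgb6, the region 14204 bp downstream (chr2:60583109-60584087) had folds of 7.79 in EF_IGF1_xeno, 12.2 and 10.3 in EF_IGF1, and 5.33, 6.52 and 12.9 in EF replicates 1, 2 and 4. It was not called in EF replicate 3 or in any Wt-labelled library. Itgb1 gained a region 23109 bp upstream (chr8:128661680-128662544), with folds of 5.31 and 6.52 in EF_IGF1 and 6.8, 6.22 and 3.47 in EF replicates 1, 3 and 4. Itga3, the laminin receptor subunit of epithelia, gained a region 8958 bp upstream (chr11:95085803-95086607), with folds of 4.16 in EF_IGF1_xeno, 4.24 and 3.59 in EF_IGF1, and 8.4, 5.79 and 5.82 in the same 3 EF libraries. EF replicate 2, the shortest EF list, called only the Itgb6 region of these.

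The lost regions included a promoter. Itga4, the subunit of the VCAM-1 receptor of blood cells and some stromal cells, had the region over the promoter printed above (chr2:79254648-79256111) called in none of the 7 EF-labelled libraries. Its folds were 7.84 in Wt_IGF1 and 6.32, 7.01 and 8.47 in Wt replicates 2, 3 and 4. Wt replicate 1, the short list, did not call it. The absence from EF and the presence in Wt were set by the rule that picked the region. EF_IGF1_xeno, EF_IGF1 and Wt_IGF1 were outside the rule, and they called 5.42%, 10.8% and 20.2%, and 92.2% of all lost regions. In libraries on BSF_1013 a further Itga4 region 86883 bp upstream (chr2:79167994-79168542) was called in Wt replicates 3 and 4 (folds 7.62 and 14.1) and in Wt_IGF1 (8.84) and in no other library.

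The other lost regions fell at Itga8, Itga5, Itgb4, Lamc1 and Lama3. Itga8, the nephronectin receptor subunit, lost a region inside the gene (chr2:12174752-12175263) and 1 lying 15351 bp upstream (chr2:12317337-12317740), which was called in all 4 Wt libraries at folds of 5.47, 15.4, 9.6 and 7.04, in Wt_IGF1 at 8.61 and in EF_IGF1 replicate 2 at 5.65. Itga5 lost regions 3577 bp and 15194 bp upstream, and the nearer (chr15:103370369-103370903) was also called in all 4 Wt libraries, at folds of 4.11, 8.49, 5.54 and 3.71. These 2 were the only lost member regions that the short list of Wt replicate 1 held. Itgb4, which pairs with the alpha 6 subunit in hemidesmosomes, lost a region inside the gene at folds of 5.21, 5.69 and 5.53 in Wt replicates 2, 3 and 4. Lamc1 lost 2 regions inside the gene, at chr1:153299464-153299785 and chr1:153304745-153305144, with folds of 2.95 to 7.93 in Wt replicates 2, 3 and 4. Lama3, the alpha chain of the epithelial anchoring laminin, lost a region at a gene end on chromosome 18 with folds of 9.22, 9.52 and 15.4 in the same libraries and 12 in Wt_IGF1.

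The libraries that the rule left aside were then looked up. Of the 3 gained regions, 2 were called in EF_IGF1_xeno, 3 and 3 in EF_IGF1 and 0 in Wt_IGF1, against 46.8%, 58.9%, 56.5% and 36% of all gained regions. Of the 9 lost regions, 0 were called in EF_IGF1_xeno, 1 and 1 in EF_IGF1 and 9 in Wt_IGF1, against 5.42%, 10.8%, 20.2% and 92.2% of all lost regions. The hematopoietic marker list had 0 gained and 8 lost of its 81 regions under the same rule, and its part in the result was not tested. The lines recur in these libraries, so they are not independent of those that set the rule. Without Wt replicate 2, and asking for 3 of 3, 6 regions were gained and 2 lost (2267 and 87 among all regions), since a lost region then had to be called in Wt replicate 1. Lost regions were also 2 without Wt replicate 3 or 4 (126 and 141 among all) and 14 without EF replicate 4 (2691). Gained regions were 0 without EF replicate 1 or 4 (317 and 277 among all), 1 without EF replicate 3 (528) and 6 without Wt replicate 4 (3759), each time asking for 3 of 3 in the shortened group.

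Because the Wt libraries of BSF_0654 were the short list and the one rich in hematopoietic marker regions, the rule was also applied within BSF_1013, as 2 of 2 against 0 of 2. There 6 member regions (1.13%) were gained and 30 (5.63%) lost, against 1.91% and 4.57% of all regions. The lost regions belonged to 18 of the 32 genes and to every family: 12 integrin alpha, 5 integrin beta, 6 laminin alpha, 3 laminin beta and 4 laminin gamma regions. Lama4, the laminin chain of vessel walls and mesenchyme, held 5 of them and Lamc1 held 3, and Itga4, Itga5, Itga8, Itga11, Itgb8 and Lamb1 held 2 each. Of the 30, EF_IGF1_xeno called 1, EF_IGF1 4 and 6, and EF replicates 1 and 2 of the other flowcell 0 and 1, against 5.02%, 10% and 21.7%, and 9.86% and 1.8% of all regions lost by this rule. Wt_IGF1 called 29 and Wt replicates 1 and 2 called 2 and 9, against 93.4%, 1.4% and 21.5% of all. The hematopoietic list held 0 gained and 6 lost of its 81 regions and the mesenchymal list 6 gained and 17 lost of its 314 in the same comparison, and their part in the result was not tested.

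**Figure D3:**
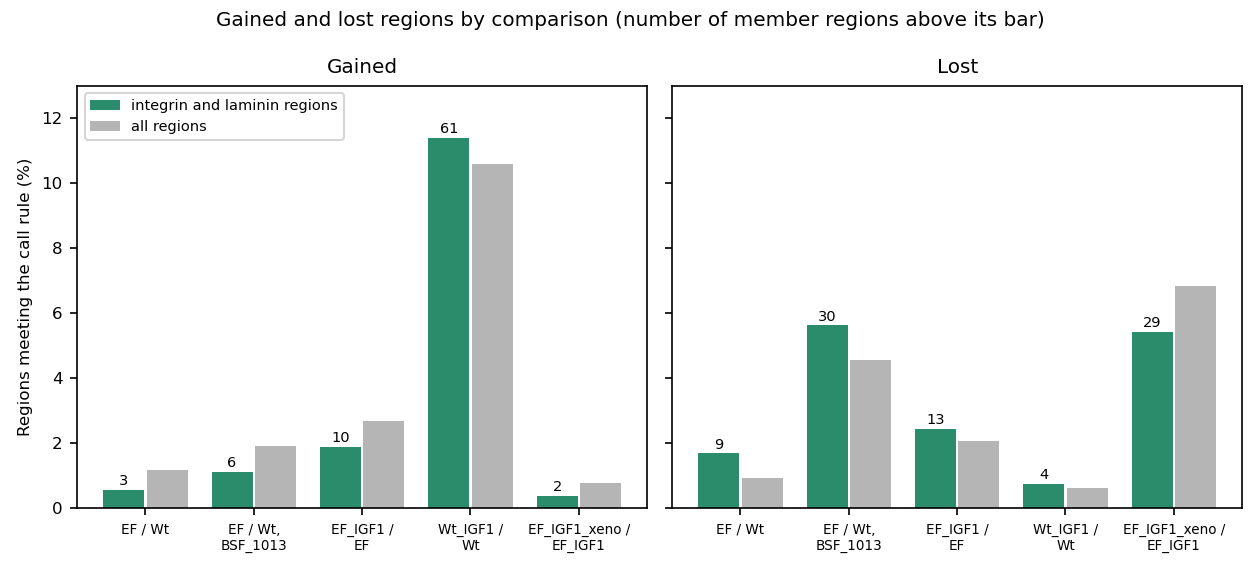
Percent of regions gained (left) and lost (right) by each comparison's call rule, for integrin and laminin regions (green, with the number of regions above the bar) and for all regions of the series (grey). The 61 members gained in Wt_IGF1 are the largest green bar, and gained members are a smaller share than gained regions of the series in every comparison except Wt_IGF1 against Wt.

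Lama4 was the laminin gene with most regions lost on BSF_1013. Over the gene and its surroundings, 0 of its 22 regions were called in EF_IGF1_xeno, 1 and 0 in EF_IGF1, 7, 1, 7 and 3 in EF, 13 in Wt_IGF1 and 0, 1, 12 and 14 in Wt. A region at a gene end, the boundary with the lower coordinate (chr10:38965481-38966195), had folds of 5.68 in Wt_IGF1 and 4.71 and 4.47 in Wt replicates 3 and 4 and was called nowhere else. A region inside the gene (chr10:39017593-39018336) behaved alike, at 8.87, 11.6 and 5.7. Lamb1, the common beta chain, had 2, 2 and 2 regions in EF_IGF1_xeno and EF_IGF1, 4, 2, 5 and 6 in EF, 9 in Wt_IGF1 and 0, 0, 5 and 15 in Wt. The spread in Wt at both genes was as wide as the difference from EF, and Wt replicates 1 and 2 were the low libraries. The totals include the regions that the BSF_1013 rule picked as lost, 5 at Lama4 and 2 at Lamb1. The low counts of EF replicates 3 and 4 follow in part from that choice.

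Itgb6 and Lama2 had more regions in EF. Itgb6 had 9 in EF_IGF1_xeno, 8 and 11 in EF_IGF1, 10, 5, 8 and 14 in EF, 9 in Wt_IGF1 and 0, 0, 8 and 9 in Wt. The zeros came from Wt replicates 1 and 2, and on BSF_1013 EF averaged 11 and Wt 8.5 regions. At its strongest region inside the gene (chr2:60688727-60689612) the folds were 16.8 in EF_IGF1_xeno, 14.5 and 15.3 in EF_IGF1, 16.8, 16.3, 15.2 and 15.6 in EF, 15.1 in Wt_IGF1 and 16.9 and 19.9 in Wt replicates 3 and 4, with no peak in Wt replicates 1 and 2. This is the highest median fold (15.9) among the leading regions of the 32 genes. Lama2 had 6, 7 and 12 regions in EF_IGF1_xeno and EF_IGF1, 14, 5, 16 and 16 in EF, 22 in Wt_IGF1 and 0, 3, 14 and 12 in Wt.

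The comparison of EF_IGF1 with EF asks what accompanies IGF1 in EF cells, within BSF_1013, as 2 of 2 against 0 of 2 libraries. By this rule 10 member regions (1.88%) were gained and 13 (2.44%) lost, against 2.7% and 2.08% of all regions. This comparison shares its EF libraries with that of EF and Wt. By gene, Lama5, Itga11, Itgb1, Itga6, Itga9 and Itgb8 had only gained regions. Lama4, Itga1, Itga2, Itgb3, Itgb5 and Lamb1 had only lost ones, and Lamc1 and Lama1 had 1 of each. The regions per gene were few, and the split was not compared with that over all genes. No test was run on 2 libraries against 2.

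Itga2 and Itga1 lost 2 regions each. Itga2, the platelet and epithelial collagen receptor subunit, lost the region over the promoter printed above (chr13:114931633-114932326), which was called in no EF_IGF1_xeno or EF_IGF1 library and had folds of 4.4, 7.47 and 6.1 in EF replicates 1, 3 and 4, 7.14 in Wt_IGF1 and 4.9, 7.2 and 7.59 in Wt replicates 2, 3 and 4. A region 1410 bp upstream (chr13:114933511-114934066) was also lost, at folds of 9.35, 7.41, 5.23 and 6.1 in EF. Over all 10 regions of Itga2, EF_IGF1_xeno called 0, EF_IGF1 1 and 0, EF 5, 2, 4 and 2, Wt_IGF1 7 and Wt 0, 3, 5 and 8. These totals include the 2 regions that the rule picked as lost, so the low EF_IGF1 counts follow in part from that choice. Itga1 lost a region inside the gene and 1 lying 11774 bp downstream (chr13:114945670-114946304), with folds of 8.33, 8.43, 10.6 and 6.41 in EF.

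Lama4 lost 3 regions. The strongest lay 56734 bp outside the gene (chr10:38908069-38908780) and had no peak in EF_IGF1_xeno or EF_IGF1, folds of 12.3, 15.1 and 9.83 in EF replicates 1, 3 and 4, 16 in Wt_IGF1 and 16.8 and 16.1 in Wt replicates 3 and 4. A region inside the gene (chr10:38994569-38995270) was called in all 4 EF libraries, at 10.7, 8.33, 10.1 and 10.3, and in none of the IGF1-treated EF libraries. Itgb3, the beta subunit of the platelet and osteoclast receptors, lost 2 regions outside the gene, of which that at 2981 bp (chr11:104673458-104674022) had folds of 12.1, 7.14, 9.73 and 5.99 in EF. Itgb5, a partner of the alpha v subunit, lost a broad region inside the gene (chr16:33921556-33923264) at folds of 5.31, 5.91, 9.11 and 8.73 in EF. Lama1 lost a region at a gene end (chr17:67696985-67697585), with 5.94, 8.72 and 10.3 in EF replicates 1, 3 and 4. Single lost regions also lay inside Lamb1, at 7.8, 5.63 and 6.21 in the same libraries, and inside Lamc1 (chr1:153266631-153267466), at 4.8, 6.19, 5.31 and 5.81 in EF.

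The gained regions had lower reach outside the EF_IGF1 libraries. Lama5, the alpha chain of most adult basement membranes, gained a region inside the gene (chr2:180221085-180221507), with folds of 6.7 in EF_IGF1_xeno and 5.8 and 5.94 in EF_IGF1, and 1 lying 9164 bp upstream (chr2:180235069-180235433), with 5.24 in EF_IGF1_xeno and 4.72 and 3.51 in EF_IGF1. Neither was called in any other library. Itga9 gained a region inside the gene (chr9:118810175-118810567), with 8.33 in EF_IGF1_xeno and 12.4 and 8.5 in EF_IGF1, and Lamc1 gained 1 inside the gene (chr1:153269657-153270029), with 7.14 in EF_IGF1_xeno and 9.76 and 6.07 in EF_IGF1. These too were called only in these 3 libraries. Itgb8, the other beta subunit that activates TGF-beta, gained a region inside the gene (chr12:119215200-119215609) that was called in EF_IGF1_xeno (6.41), EF_IGF1 (5.71 and 5.26), Wt_IGF1 (10) and Wt replicates 3 and 4 (7.61 and 11.8), and in no EF library. Itga11, the collagen receptor subunit of fibroblasts, gained 2 regions upstream that Wt_IGF1 and Wt replicate 4 also called. The others lay inside Itga6, downstream of Itgb1 and 3743 bp outside Lama1, and each was called in the EF_IGF1 libraries only.

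**Figure D4:**
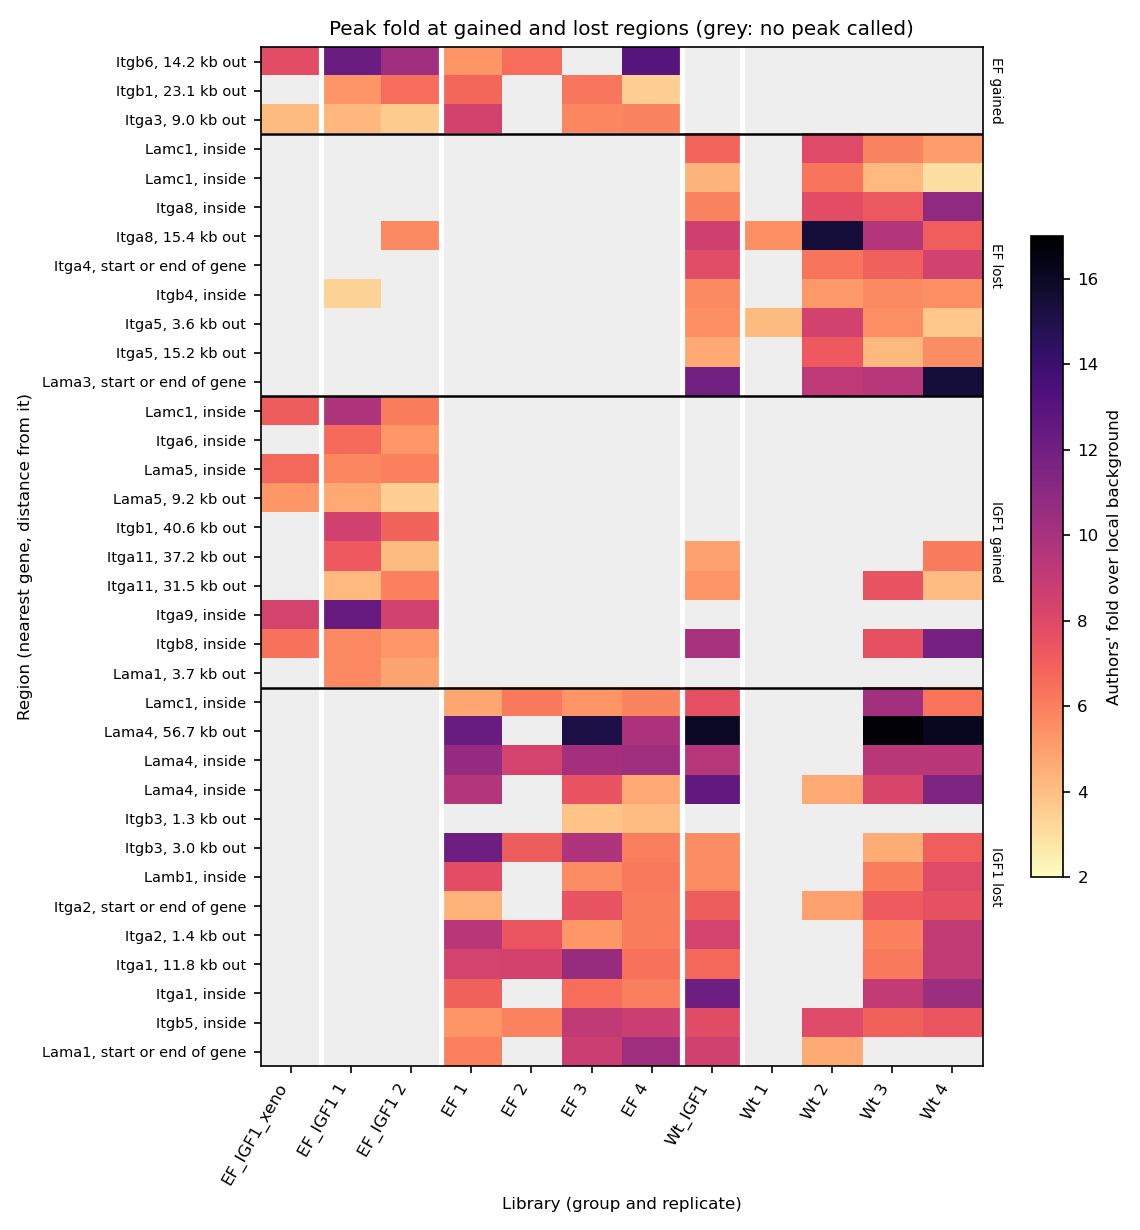
The authors' fold over local background (colour, grey where no peak was called) in each library (columns) at the member regions gained or lost in EF against Wt (upper blocks) and in EF_IGF1 against EF within flowcell BSF_1013 (lower blocks, marked IGF1), with distance from the gene in kb. The 9 regions lost in EF are all filled in Wt_IGF1, and the 13 regions lost in EF_IGF1 are all grey in EF_IGF1_xeno.

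EF_IGF1_xeno, which was not used in this rule, called 5 of the 10 gained regions and 0 of the 13 lost ones, against 47.3% and 5.77% of all gained and all lost regions. EF replicates 1 and 2 called 0 and 0 of the gained ones and 12 and 6 of the lost ones, against 6.67% and 1.81%, and 72.9% and 12.6%, of all regions called by the rule. Wt_IGF1 called 3 of the gained ones, against 33.3% of all gained regions. Of the lost ones Wt_IGF1 called 12 and Wt replicates 1 to 4 called 0, 4, 11 and 11, against 69.9%, and 2.38%, 31.4%, 48% and 63.8%, of all lost regions. Most of the 13 lost regions were thus called in EF replicate 1, Wt_IGF1 and Wt replicates 3 and 4, and fewer than 7 of them in EF replicate 2 and Wt replicates 1 and 2. Without EF replicate 4 the counts were 52 gained and 73 lost (17278 and 16041 among all regions), and without EF replicate 3 they were 12 and 49 (4896 and 12911). Without EF_IGF1 replicate 1 they were 27 and 16 (10465 and 4282), and without EF_IGF1 replicate 2 they were 22 and 25 (9738 and 5595). The balance of gained and lost members changed with the library left out, as did that of all regions.

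EF replicate 4 resembled the EF_IGF1 libraries at several genes. Lama5 had 7 regions in EF_IGF1_xeno, 7 and 9 in EF_IGF1, 1, 2, 1 and 8 in EF, 6 in Wt_IGF1 and 0, 3, 2 and 3 in Wt. Itga3 had 5 in EF_IGF1_xeno, 7 and 7 in EF_IGF1, 3, 1, 4 and 7 in EF, 6 in Wt_IGF1 and 0, 1, 3 and 5 in Wt. At both genes EF replicate 4 was level with EF_IGF1 and the other EF libraries were lower. EF replicate 4 also had the longest EF list, with 64961 regions against 25562 to 50409 in the other EF libraries. Over the member regions the Jaccard index of EF_IGF1 replicate 1 was 0.564 with EF replicate 4 and 0.353 with EF replicate 3. Marker lists of other cell types also differed between libraries, and EF replicate 4 was near EF_IGF1 on the epithelial list but not on the neural one. Of 62 regions of 8 epithelial genes, 38.7% were called in EF_IGF1_xeno, 46.8% and 45.2% in EF_IGF1, 22.6%, 17.7%, 21% and 41.9% in EF, 41.9% in Wt_IGF1 and 0% to 35.5% in Wt, with the keratin gene Krt18 at 4, 5 and 5 of its 6 regions in EF_IGF1_xeno and EF_IGF1, 2, 1, 1 and 5 in EF, 2 in Wt_IGF1 and 0 or 1 in Wt. Other epithelial genes went the other way. Grhl2 had 3, 3 and 3 regions in EF_IGF1_xeno and EF_IGF1 and 5 and 8 in Wt replicates 3 and 4. Epcam had 2, 2 and 3 in EF_IGF1_xeno and EF_IGF1 and 6 in Wt replicate 2. Of 18 regions at 5 neural and Schwann genes, 44.4% were called in EF_IGF1_xeno, 55.6% and 61.1% in EF_IGF1, 22.2% to 33.3% in EF (33.3% in replicate 4), 33.3% in Wt_IGF1 and 0% to 27.8% in Wt, with Sox2 at 0 throughout. Their part in the integrin and laminin result was not tested.

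In Wt cells, 1 library with IGF1 was set against Wt replicates 3 and 4, with no replicate check. Wt_IGF1 gained 61 member regions (11.4%) and lost 4 (0.75%), against 10.6% and 0.624% of all regions, and it had the longest list, with 79524 regions. With at most 20000 peaks per library the counts were 8 gained and 8 lost (2419 and 1423 among all regions). Lama1 gained 7 of its 11 regions, and its count was 10 in Wt_IGF1 and 3 and 2 in Wt replicates 3 and 4. The 10 include the 7 that the rule picked, so this gap follows in part from the rule. Of these 7, all but the one at the gene end were called in no other library, at folds of 4.48 to 6.2. Lama2 gained 6, at folds of 4.32 to 7.77, Itga9 gained 5, at 5.19 to 7.46, and Itga8, Itgb3 and Lama5 gained 4 each. Laminin beta genes gained 0, and the 24 integrin alpha, 11 integrin beta, 19 laminin alpha and 7 laminin gamma regions came from 23 genes. The 4 lost regions lay at Itga11 (2), Itgb4 and Itgb8. The Itgb8 region (chr12:119137911-119138366) was called in Wt replicates 3 and 4 only, at 7.5 and 8.07. Against Wt replicate 3 alone, which carries the same line name, 105 were gained and 13 lost (28354 and 3033 among all regions).

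EF_IGF1_xeno, also 1 library, was set against the EF_IGF1 libraries, which the comparison with EF uses too. It gained 2 member regions (0.375%) and lost 29 (5.44%), against 0.794% and 6.83% of all regions, with 40945 regions in its list and 56410 and 60620 in theirs. Of its 125 member regions, 115 were shared with EF_IGF1 replicate 1, labelled S_220. EF_IGF1 replicate 2, which carries the same line name as EF_IGF1_xeno (S_221), shared 116. The gained regions lay inside Itgb6 (chr2:60703344-60703568, fold 4.64, in no other library) and inside Itgav (chr2:83733927-83734314, fold 5.81, also in Wt_IGF1 at 4.1). Itgb1 lost 5 regions and had 4 in EF_IGF1_xeno and 9 and 10 in EF_IGF1. The 5 are part of the EF_IGF1 totals, so this gap follows in part from the rule. The region lost 5217 bp upstream of Itgb1 (chr8:128679828-128680436) had folds of 5.75 and 5.82 in EF_IGF1, 8.33, 8.42, 9.92 and 15.2 in EF, 11.5 in Wt_IGF1 and 4.63, 13 and 14.5 in Wt replicates 2, 3 and 4. It was thus called in every library except EF_IGF1_xeno and Wt replicate 1, and the Itgb1 promoter itself was called in EF_IGF1_xeno at 11.1. Itga6, the alpha subunit of the main laminin receptors, Itga11 and Lamc3 lost 3 regions each, at folds of 3.52 to 8.51 in EF_IGF1 for these genes and Itgb1 together.

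Of the 33 genes, 22 had a RefSeq promoter, in 25 windows of 300 bases. A peak overlapped 7 windows (28%) in 10 or more libraries and 6 (24%) in none, against 29.3% and 51.6% of all 32619 windows in the table. The Itgav window was called in 12 libraries, Itga1, Itga8, Itgb1 and Itgb8 in 11, and Itgb5 and Lamb2 in 10. The windows in no library were those of Itga2b, Itga9, Itgb2l and Itgb7 and 1 of the pair at Itga3 and at Itgb6. Windows called in 10 or more libraries held a median of 20 CpG dinucleotides among the members and 23 among all, and those called in none 5 and 3.

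Some of the printed promoters were chosen because their calls differed between groups, so the differences below follow from that choice. How many of all windows differ in this way was not counted. Itga4 was called in Wt_IGF1 and 3 Wt libraries only, and Itga2 in no EF_IGF1_xeno or EF_IGF1 library. The region over the Lamb3 window had folds of 8.53 in EF_IGF1_xeno, 8.56 and 7.97 in EF_IGF1 and 7.35 in EF replicate 4, and no peak in EF replicates 1, 2 and 3, Wt_IGF1 or Wt. Lamb3 encodes the beta chain of the epithelial anchoring laminin. The Lamb1 window had folds of 4.89 in EF_IGF1_xeno, 6.07 and 5.88 in EF_IGF1 and 3.48 and 6.27 in EF replicates 3 and 4, and no peak in Wt_IGF1 or Wt. At Lamb1 the promoter was thus called in EF-labelled libraries where the gene as a whole had fewer regions than in Wt_IGF1 and Wt replicate 4. The Itgb1 window had folds of 11.1 in EF_IGF1_xeno, 11.2 and 9.31 in EF_IGF1, 8.42 to 9.85 in EF, 12 in Wt_IGF1 and 8.55 to 9.93 in the Wt libraries that called it, replicates 2, 3 and 4.

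**Figure D5:**
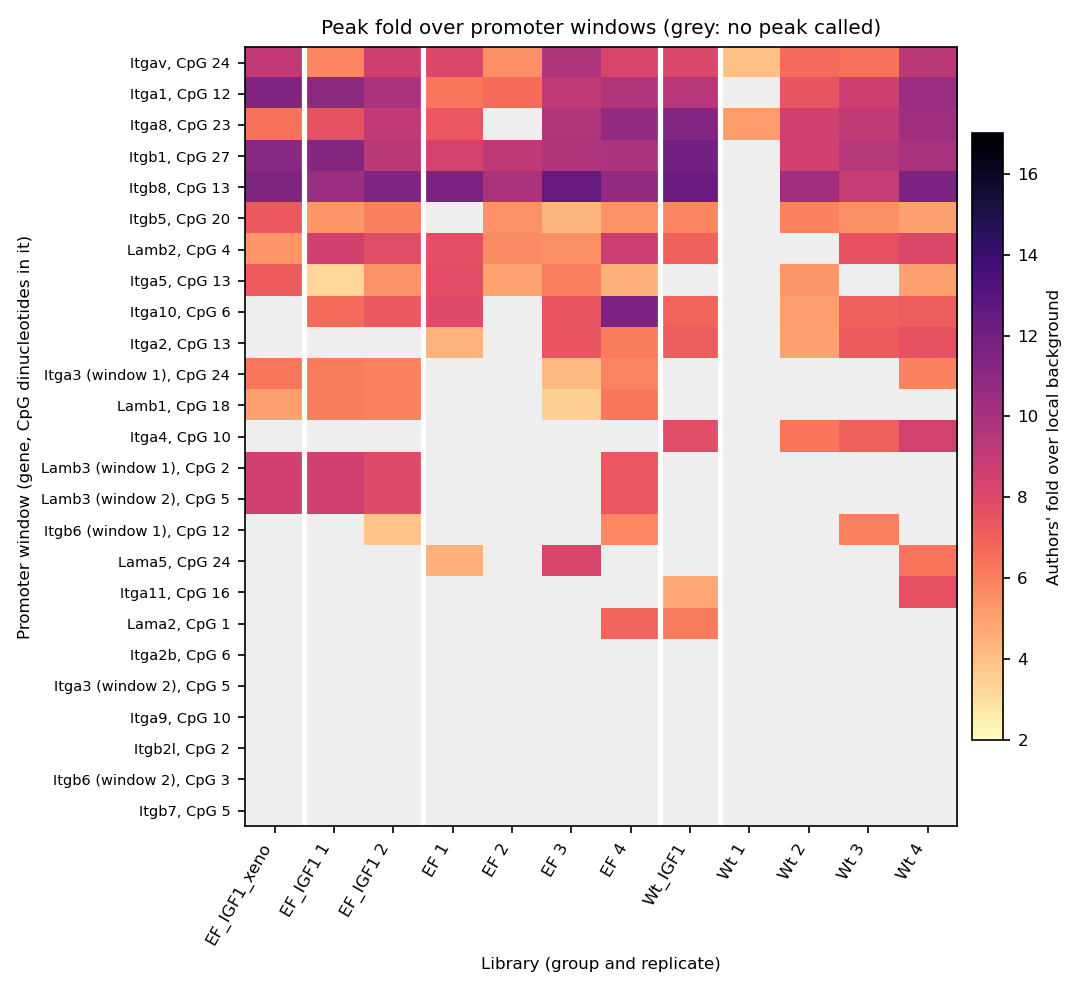
The authors' fold over local background (colour, grey where no peak was called) of the peak over each promoter window (rows, with the number of CpG dinucleotides in the window) in each library (columns). Windows called in most libraries are at the top, Itga4 is filled in Wt_IGF1 and Wt libraries only, and Lamb3 and Lamb1 in EF-labelled libraries only.

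Among the 25 windows, 3 (12%) held a TEAD match, 2 (8%) an AP-1 match and 2 (8%) a pair of ETS cores, against 14.6%, 7.85% and 3.69% of all windows. The TEAD matches were in Lamb3, Itgb1 and Itga10, a chondrocyte collagen receptor subunit. GC boxes were in 11 (44%) against 35.9%, CCAAT in 3 (12%) against 37.6% and TATAAA in 0 against 13.7%. Itga3 had an AP-1 match in its window called in no library and a pair of ETS cores in the other.

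The partners of integrins and laminins were counted by the same rules, over 49 genes of which 48 had a region, 837 regions in all. In EF against Wt 10 (1.19%) were gained and 10 (1.19%) lost, against 1.19% and 0.938% of all regions. Focal adhesion genes held 8 and 8, with 1 gained each at Fermt1 (a kindlin), Parva (an actin linker of integrins), Itgb1bp1 and the kinase gene Ptk2b, and 2 lost each at Lims1 (the adaptor PINCH) and Tns1 (a tensin). In EF_IGF1 against EF 30 (3.58%) were gained and 24 (2.87%) lost, against 2.7% and 2.08% of all regions, with 4 gained at Ptk2, the gene of focal adhesion kinase, and 3 gained and 4 lost at the talin gene Tln2. Ligands and basement membrane partners held 11 and 9 there, with 3 gained at Fbln1 and 2 gained each at Col4a1, Nid1 and Nid2. Nid1 and Nid2 encode the nidogens that join laminin to collagen. The perlecan gene Hspg2 and Thbs1 lost 2 each. Other laminin receptors, such as Dag1 (dystroglycan), held 0 and 0.

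Partner regions in the single-library comparisons numbered 66 (7.89%) gained and 8 (0.956%) lost in Wt_IGF1 against Wt, where all regions gave 10.6% and 0.624%, with 6 gained at Tns1 and 5 at the tenascin gene Tnc. In EF_IGF1_xeno against EF_IGF1 they numbered 5 (0.597%) gained and 59 (7.05%) lost, against 0.794% and 6.83% of all regions, with 6 lost at Tln2 and 5 at Ptk2. Within BSF_1013, EF against Wt had 17 (2.03%) gained and 51 (6.09%) lost partner regions, against 1.91% and 4.57% of all regions, with 9 of the lost ones at the tensin gene Tns3 and 6 at Tnc. Lost regions were the larger share among partners, members and all regions alike in that comparison.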

How the data were processed

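The 12 ATAC-seq peak lists, 1 per library, were used as the authors deposited them, so peaks were called per library. The submitters' processing notes name MACS2 and build GRCm38.p3; the aligner, filters, read shift and caller options are not given. For each peak the deposited files give a fold over local background (a ratio), a −log10 p-value and q-value (lowest −log10 q per library 2.03 to 2.6), a score taken from the −log10 q, and positions. Regions were merged peaks, assigned to the nearest of 21631 protein-coding gene intervals of the RefSeq table of GRCm38.p6, which shares the chromosome coordinates of p3. Ties went to the gene with more overlap. The analysis used Python 3.11.15, pandas 2.3.3, numpy 2.4.6, SciPy 1.17.1 and matplotlib 3.10.9, and the counting was tested on simulated peak lists. No test was run on counts or shares. Every member but 1 gene, which is not reported here by itself and enters only totals, could be named, with all gained and lost regions of the replicated comparisons, up to 4 genes per direction of the others, and up to 4 genes of each partner list. The members and lists were chosen with earlier results of these data known; the CCAAT and TATA motifs and the text's use of the comparison within BSF_1013 were chosen after the data were seen. Alternatives changed the peaks used, the regions, the distance, the call rule and the libraries. Exon and intron positions were not analysed here.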

Additional observations from a re-analysis of the deposited data

Results flagged for a closer look

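The share of called regions at laminin alpha genes moved in opposite directions with IGF1 in the Wt and the EF lines. IGF1 minus untreated, on the same flowcell and line name, it was 0.00786 percentage points in Wt line BM (0.078% in Wt_IGF1 and 0.0701% in Wt replicate 3), -0.019 points in EF line S_220 (0.0425% in the library labelled EF_IGF1 replicate 1 and 0.0615% in EF replicate 3) and -0.0108 points in EF line S_221 (0.0462% in EF_IGF1 replicate 2 and 0.057% in EF replicate 4). Every pair of a group moved one way, but the groups are 1 and 2 pairs, and the difference between them was not tested. Wt replicate 4, also untreated on BSF_1013, had 0.0597%, further from Wt replicate 3 than Wt_IGF1 was. Wt_IGF1 had the longest list, and 6 Lama1 regions were called only there. The library labelled EF_IGF1 replicate 1 shared more regions with EF replicate 4 than with EF replicate 3 (Jaccard index 0.599 and 0.406). At the level of genes, Lama4 had 13 regions in Wt_IGF1 and 12 in Wt replicate 3, while EF_IGF1 had 1 and 0 and EF replicates 3 and 4 had 7 and 3. Lama5 went the other way in EF, with 7 and 9 regions in EF_IGF1 and 1 and 8 in EF replicates 3 and 4, and had 6 in Wt_IGF1 and 2 in Wt replicate 3. These counts include the 3 Lama4 regions picked as lost and the 2 Lama5 regions picked as gained in EF_IGF1 against EF.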

How the results depend on the processing

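Of the recomputed values, 11 reversed and 54 moved, and the other 166 kept their direction but not always their size; the cause was not tested unless given. The EF minus Wt share of all members (0.0201 points) reversed within BSF_1013 (-0.0355) and as percent of member regions called (-1.45), and ran from -0.0304 (without Wt replicate 1) to 0.042 with 1 library left out. Within BSF_1013 the shares of integrin beta (-0.00129), laminin alpha (-0.0057), laminin beta (-0.00754) and laminin gamma genes (-0.00127) reversed too. Laminin beta gave 0.0131 within BSF_0654 and -1.79 as percent of member regions called. With 1 library left out integrin beta ran from -0.00134 to 0.0209, negative without Wt replicate 1, and laminin beta from -0.00151 to 0.00845, negative without Wt replicate 1 or Wt replicate 2 (-0.000375); the other families kept their sign.

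Gained and lost counts, in that order, were 3 and 9 for EF against Wt. They became 10 and 14 at 3 of 4 against at most 1, 0 and 2 at 4 of 4 against 0, 6 and 30 within BSF_1013, 28 and 4 within BSF_0654, and 0 to 6 and 2 to 14 with 1 library left out. Gained fell to 1 within 10 kb of genes. Among all regions the counts were 1824 and 1439 by the main rule. They were 4800 and 3107 at 3 of 4 against at most 1, and 257 and 87 at 4 of 4 against 0. Within BSF_1013 they were 2935 and 7008, within BSF_0654 6271 and 751, and with 1 library left out 277 to 3759 and 87 to 2691. Within each flowcell the larger side was the same for members and all regions, but not by the main rule. For EF_IGF1 against EF (10 and 13) the member counts were 33 and 60 in line S_221 (12343 and 16684 among all regions) and 72 and 89 in line S_220 (25563 and 19562). With 1 library left out they were 12 to 52 and 16 to 73 (4896 to 17278 and 4282 to 16041). For Wt_IGF1 against Wt (61 and 4) they were 105 and 13 against Wt replicate 3 alone (28354 and 3033 among all regions). Added after the data were seen, they were 87 and 43 without it (24430 and 11860). Lost were 0 against all 4 Wt libraries (311), 1 at −log10 q of 5 or more (973) and 1 within 10 kb (957). For EF_IGF1_xeno against EF_IGF1 (2 and 29) they were 9 and 74 against EF_IGF1 replicate 2 alone (3040 and 22715 among all regions). Added likewise, they were 10 and 45 without it (3024 and 18489). Gained were 5 with windows of 250 bp around summits (1527).

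At most 20000 peaks per library gave 4 gained and 2 lost in EF against Wt, so that gained became the larger side. Gained was also the larger side among all regions there (1300 and 403). That setting gave 6 and 8 in EF_IGF1 against EF (1587 and 866 among all regions) and 8 and 8 in Wt_IGF1 against Wt (2419 and 1423). It gave 6 and 6 in EF_IGF1_xeno against EF_IGF1 (1809 and 1378), and 2 called in all 12 libraries (3535). The number in all 12 ran from 6 to 27 with 1 library left out (5784 to 12288 among all regions). Leaving out 1 library, also added later, gave 25.4% to 41.6% of members called only in Wt-labelled and 15.2% to 22% only in EF-labelled libraries.

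List length limits every count, and 7464 to 79524 regions were called per library. Lines recur among the EF-labelled libraries, and Wt_IGF1 and EF_IGF1_xeno are 1 library each.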
